A study of Homo sapiens with 1536 samples.

Results

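HCC-38 is a triple-negative breast cancer cell line, and its response to a panel of cytotoxic and targeted compounds is described here next to the response of 4 other breast cancer cell lines treated in the same wells. The members were all deposited HCC-38 values of relative cell number, except those for Ruxolitinib and STF083010, which the study's methods also set aside, and except the sgHSF1 and sgKEAP1 columns, which were left out in every line. They made up 19.8% of the 6960 deposited values of 1 line in 1 well, with 8 wells for each compound, and covered 98.9% of the compounds with deposited values. Over the dose range, the cell number of HCC-38 relative to its own DMSO wells was below the mean of the others with 76 of these compounds. It was above that mean with 96. The methods set the 2 compounds aside for extreme values, and sgHSF1 and sgKEAP1 for high variation in ZR-75-1 only, so leaving them out of every line was a wider choice made here. The choice used no other measured response.

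The screen pooled the ER+ line ZR-75-1, the HER2+ line SKBR3 and 3 triple-negative lines, which were BT-20, HCC-38 and MDA-MB-231. Every line carried a doxycycline-inducible Cas9, was cultured with doxycycline for 7 days before treatment, and held a mixed library of sgRNAs, so no line was free of Cas9 editing. The 10 sgRNA columns used here were 9 that target a gene (ATF3, ATF4, ATF6, ATG7, ERN1, HSF2, NFE2L2, SLC35F2 and XBP1, mostly factors of protein quality control) and sgNT, which pools 5 guides without a target. Each well of the pool received 1 compound at 1 of 4 rising doses or DMSO alone for 72 h, with 2 replicates of every dose and 96 DMSO wells.

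HCC-38 was derived from a primary ductal carcinoma and is known for a methylated BRCA1 promoter. Among the others, ZR-75-1 depends on estrogen signalling, SKBR3 carries amplified HER2, and BT-20 carries amplified EGFR. Triple-negative lines lack the estrogen receptor, the progesterone receptor and HER2 amplification. No RNA or protein was measured here, so markers of each line could not be examined, and cells were assigned to a line by its barcode.

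HCC-38 reads were told apart from those of the other cells by an 8 nt cell line barcode, shown 5′ to 3′ with capitals in the other lines marking the bases that differ from HCC-38, because every value below rests on this assignment.
HCC-38: tacagagg
ZR-75-1: ATcaCTgg
SKBR3: CGGTgaCC
MDA-MB-231: taACAGTT
BT-20: ATTGTCAA
spike-in cells: GCTGgaTT
The closest of these barcodes differed from that of HCC-38 at 4 of 8 positions, and the study's counting allowed up to 1 mismatch per barcode.

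HCC-38 was the most abundant line in the pool, with 42.2% ± 1.29 (SD, n = 96 DMSO wells) of the reads of the 5 lines, against 11.5% to 16.2% for each of the others. Wells of the compounds compared held 30125 to 1919952 reads (median 539618). HCC-38 itself held 3560 to 721383 of them. The relative cell number of HCC-38 in DMSO wells, as the mean over 10 sgRNAs, was 101.6% ± 10.9 (SD, n = 96) and ranged from 82.3% to 133.04%. Of the HCC-38 values, 24.1% lay above the highest spike-in standard (human embryonic kidney cells added at known numbers) and were read off the curve beyond its last point, whereas at most 0.0145% of the values of any other line did. The reads carry no molecular identifiers, so read totals cover counting error only.

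Response was summarised by an area under the curve of relative cell number over dose (AUC). The lowest and highest dose had a weight of 0.5 and the middle doses a weight of 1. Untreated cells therefore score 300, and a lower AUC means fewer cells relative to the DMSO wells of the same line. The mean AUC of HCC-38 over replicates ranged from 41.6 to 364.1, with a median over compounds of 272.4. The mean of the other 4 lines had a median of 263.6. HCC-38 had an AUC under 100 with 11 compounds, against 7 for the mean of the others, and under 200 with 39, against 35. Ranked among the 5 lines by mean AUC, HCC-38 was lowest for 28 compounds and highest for 47. The SD between the replicates of HCC-38, as a root mean square over compounds, was 15.4 AUC units.

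The first comparison asked which compounds acted on HCC-38 more or less than on the other lines. Compared with the mean of the 4 other lines, HCC-38 had a lower AUC for 14 compounds (8.14%) and a higher AUC for 23 (13.4%) at a limma adjusted p below 0.05. The most negative difference belonged to the FGFR inhibitors BGJ398 and AZD4547 and the most positive to RITA, a compound that binds p53. All 37 calls had the same sign in both replicates, against 72.7% of all compounds. The calls were made on these same values, so this agreement was largely fixed by the choice and adds no support. Both HCC-38 values lay below all 8 values of the other lines for 8 compounds (4.65%), of which 6 were called lower. They lay above all 8 for 17 compounds (9.88%), of which 14 were called higher. The median difference over all compounds was 4.21, and 96 differences were positive. Setting that median to 0 gave 18 lower and 12 higher calls, and scaling to the DMSO wells of the same dose and replicate label gave 16 lower and 12 higher calls. The p-values measure only the spread between these 2 replicates a line, which may be technical. Because all lines of a replicate share their wells, replicates were also entered as a block, which gave 23 lower and 39 higher calls and included all 37. Taking the difference within each replicate and testing those 2 values a compound gave 0 lower calls and 1 higher in limma (21 and 35 at an unadjusted p under 0.05). Without HCC-38 replicate 1 the counts were 6 lower and 10 higher, and without HCC-38 replicate 2 they were 4 and 9. With any 1 of the 10 samples left out, the difference ran from −64.3 to −57.8 for BGJ398, −61.1 to −50.5 for AZD4547 and −49.6 to −42.1 for Carfilzomib. It ran from −40.1 to −36.5 for YM155, 182.8 to 206.9 for RITA, 55.01 to 72.9 for BrefeldinA and 49.3 to 61.1 for Fluvastatin. These compounds are given because only their calls held whichever sample was left out, so they are not typical of the calls. All other called compounds examined in this way lost the call in some of these fits. Among them the difference ran from −32.1 to −23.0 for Navitoclax and from 18.6 to 37.2 for Chlorambucil. The called compounds Tacrolimus, Thalidomide and Trifluoperazine were not examined one by one in this way.

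**Figure D1:**
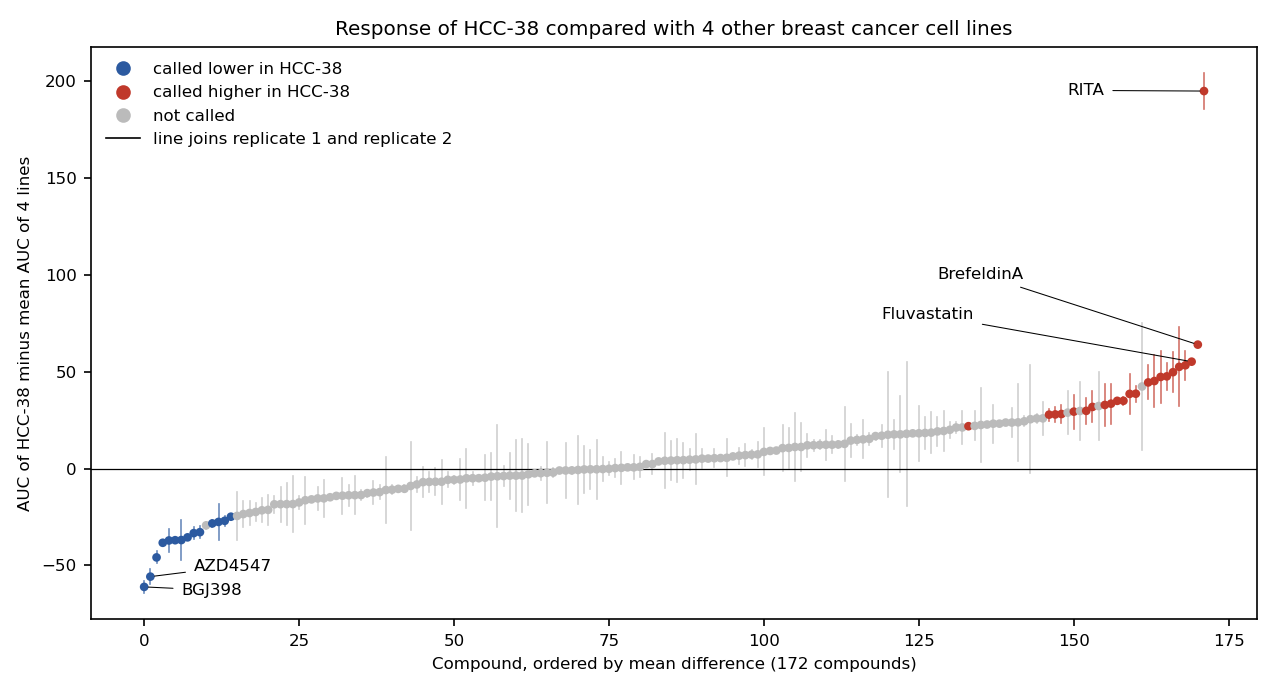
Difference in AUC between HCC-38 and the mean of ZR-75-1, SKBR3, MDA-MB-231 and BT-20 for all compounds, ordered by size. Points are means of 2 replicates, vertical lines join the 2 replicate differences, and colour marks the 14 compounds called lower and the 23 called higher. BGJ398 (−61.1) stands at the low end and RITA (+194.8) far above the rest at the high end.

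The FGFR inhibitors BGJ398 and AZD4547 reduced HCC-38 more than any of the other lines. Both block the kinase activity of the fibroblast growth factor receptors, which carry growth signals into the cell. With BGJ398 the AUC was 208.1 and 202.8 in the HCC-38 replicates and 248.4 to 281.99 (median 268.98) in the 8 samples of the other lines. With AZD4547 it was 191.8 and 181.2 in HCC-38 and 224.1 to 260.96 (median 242.3) in the others. The groups did not overlap for either compound. The differences were −61.1 ± 8.58 (SE, limma adjusted p = 0.00330) and −55.8 ± 7.88 (SE, limma adjusted p = 0.00330).

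The single doses called with BGJ398 and AZD4547 were 100 and 1000 nM for BGJ398 and 1000 nM for AZD4547. At 10 nM BGJ398 left 97.7% and 90.96% of HCC-38 cells, within the 86.4% to 102.1% of the others. At 100 nM it left 71.2% and 70.2%, below the 90.3% to 109.4% of the others (limma adjusted p = 0.0210), and at 1000 nM 57.6% and 55.8% against 76.9% to 91.8% (limma adjusted p = 0.00400). HCC-38 fell no further at 10000 nM, where 60.9% and 62.7% remained, still below the 68.5% to 95.2% of the others but not called (difference −16.4, limma adjusted p = 0.0659). AZD4547 at 1000 nM left 56.3% and 56.6% of HCC-38 and 87.8% to 103.5% of the others (limma adjusted p = 0.00444), whereas at 10000 nM HCC-38, at 41.8% and 43.7%, lay within the 27.4% to 59.3% of the others. The other 5 members of the list of other receptor kinase inhibitors were not called, with differences from −0.740 (Entrectinib) to 19.4 (SU11274). With the highest dose alone the difference of AZD4547 was 1.17.

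AT7867, an inhibitor of AKT and of p70 S6 kinase, gave a crossing pattern. Its AUC was 173.7 and 193.4 in HCC-38 and 177.4 to 263.2 (median 219.9) in the others, overlapping in MDA-MB-231 (198.6 and 177.4), and the difference was −36.9 ± 10.2 (SE, limma adjusted p = 0.0319). At 100 nM AT7867 left 63.6% and 75.4% of HCC-38 and 86.2% to 118.99% of the others. At 10000 nM the order was the opposite, with 53.03% and 52.3% of HCC-38 and 11.1% to 24.8% of the others (difference 36.2, limma adjusted p = 0.000550). Between 1000 nM (40.4% and 47.2%) and 10000 nM HCC-38 did not fall. The other 4 members of the AKT and mTOR list were not called, and the median of the 5 was 2.298 against 4.21 over all compounds.

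Proteasome inhibitors, which block the protease that degrades ubiquitin-tagged proteins, acted strongly on all lines and more on HCC-38 than on the mean of the others. Of 4 members, 3 were called lower and none higher, against 8.14% lower and 13.4% higher over all compounds, and the median difference was −35.2 against 4.21. Carfilzomib, which binds the proteasome irreversibly, gave an AUC of 79.8 and 87.3 in HCC-38 and 86.996 to 163.6 (median 137.7) in the others, with a difference of −45.9 ± 7.56 (SE, limma adjusted p = 0.00455). HCC-38 overlapped only SKBR3 (92.8 and 86.996). For Bortezomib the HCC-38 values were 101.8 and 95.4 and those of SKBR3 113.2 and 96.9. For MLN2238, also known as ixazomib, the values were 105.7 and 105.7 in HCC-38 against 100.9 and 104.99 in SKBR3. With MLN2238, HCC-38 lay below ZR-75-1, at 190.8 and 168.95, and below BT-20 (169.99 and 164.3), overlapped MDA-MB-231 (106.5 and 105.6), and lay just above SKBR3. The differences were −36.98 ± 7.04 (SE, limma adjusted p = 0.00796) for Bortezomib and −33.3 ± 7.41 (SE, limma adjusted p = 0.0135) for MLN2238. The fourth member, MG132, had a difference of −18.5 ± 8.05 and was not called (limma adjusted p = 0.136).

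Of the 6 topoisomerase poisons 2 were called lower and none higher (median −5.39), and of the 6 antimetabolites 2 were called lower and 1 higher (median −2.305), against 8.14% lower and 13.4% higher over all compounds. Topotecan gave an AUC of 60.4 and 67.3 in HCC-38, below the 72.03 to 139.9 (median 95.3) of the others (difference −37.1 ± 9.29, SE, limma adjusted p = 0.0255). SN38, the active metabolite of irinotecan, gave 115.04 and 110.5 against 104.03 to 183.8 (median 128.2), with overlap in MDA-MB-231 only (112.5 and 104.03, difference −24.9 ± 6.62, limma adjusted p = 0.0309). The 4 poisons of topoisomerase II, Doxorubicin, Etoposide, Mitoxantrone and Teniposide, were not called, with differences between −5.81 and −0.251. Gemcitabine, a cytidine analog, gave 46.04 and 37.1 in HCC-38 and 47.7 to 107.2 (median 69.8) in the others without overlap (difference −32.8 ± 6.5003, limma adjusted p = 0.00842). Clofarabine, a purine analog that inhibits ribonucleotide reductase, gave 90.7 and 96.6 and 95.7 to 168.4 (median 122.6) with overlap in MDA-MB-231 (95.7 and 99.8, difference −35.5 ± 6.82, limma adjusted p = 0.00796). The antimetabolites Methotrexate, Nelarabine and SixMercaptopurine were not called, with differences of −21.6, 16.9 and 22.02. FiveFluorouracil (5-fluorouracil), an inhibitor of thymidylate synthase in the same antimetabolite list, moved the opposite way: its AUC was 302.4 and 302.7 in HCC-38 and 215.7 to 288.2 (median 257.5) in the others (difference 47.3 ± 12.6, limma adjusted p = 0.0309). That AUC near 300 combined values up to 122.6% at 100 nM with 62.5% and 72.2% at 10000 nM, where the others were at 25.4% to 65.6%.

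The remaining compounds called lower act on survival and division. YM155, which lowers survivin and enters cells through the SLC35F2 transporter, gave an AUC of 61.8 and 65.4 in HCC-38 and 81.4 to 123.4 (median 103.5) in the others without overlap (difference −38.3 ± 6.44, limma adjusted p = 0.00462). The difference was −39.6 when sgSLC35F2 was left out of the mean. Within HCC-38 the AUC of YM155 over the 10 sgRNAs ran from 51.03 to 126.2, the highest being sgSLC35F2. Navitoclax, an inhibitor of BCL-2 and BCL-XL, gave 248.4 and 257.5 and 262.1 to 316.7 (median 275.9) without overlap (difference −27.5 ± 7.68, limma adjusted p = 0.0319). The other members of the BCL-2 list had negative differences that were not called, −24.4 ± 8.19 for ABT737 and −13.99 ± 9.39 for Gossypol. GSK461364, an inhibitor of the mitotic kinase PLK1, gave 59.8 and 51.7 in HCC-38, overlapping SKBR3 (55.8 and 48.001) and MDA-MB-231 (57.1 and 49.4) and below BT-20 (106.4 and 101.2) and ZR-75-1 (125.6 and 129.05). Dasatinib, an inhibitor of SRC and ABL kinases, placed HCC-38 (193.9 and 194.4) above MDA-MB-231 (152.7 and 154.9) and below the other 3 lines. Their differences were −28.3 ± 6.67 (limma adjusted p = 0.0185) and −26.97 ± 7.04 (limma adjusted p = 0.0309).

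**Figure D2:**
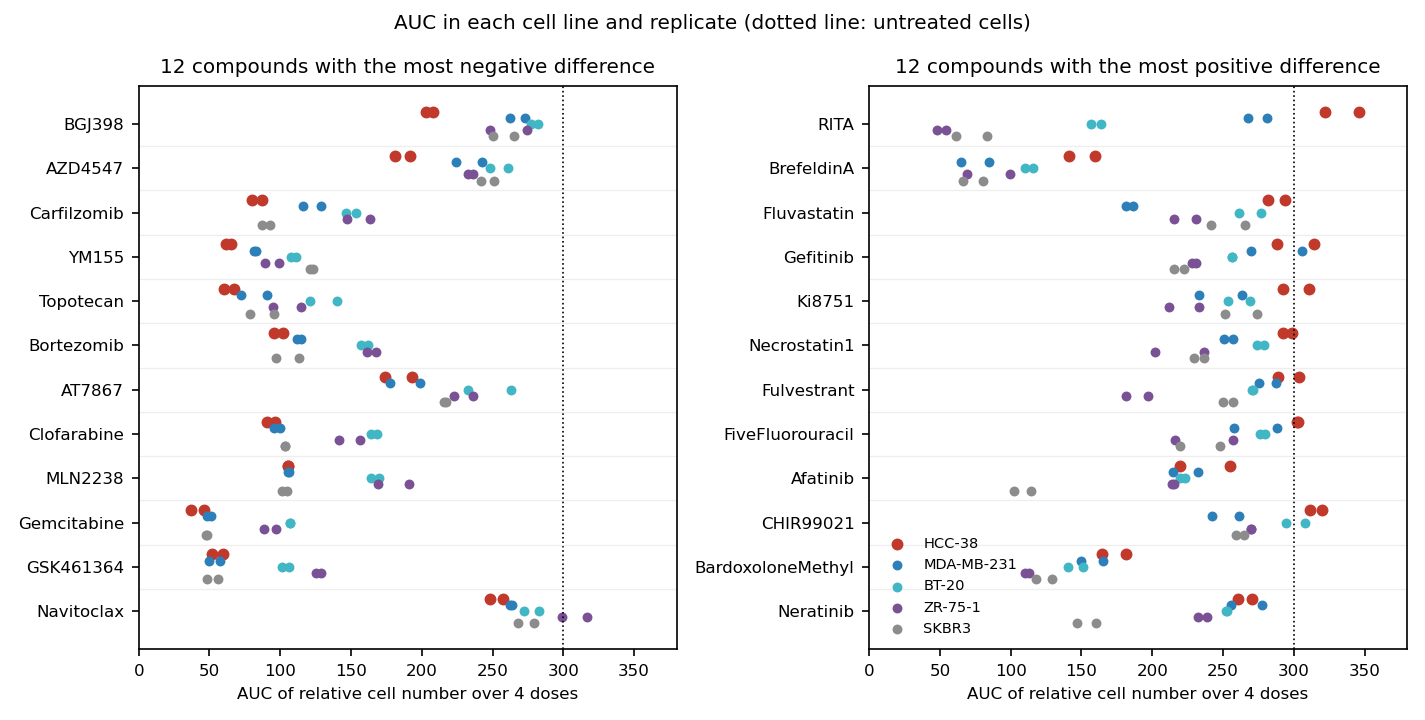
AUC of relative cell number over 4 doses in each cell line for the 12 compounds with the most negative (left) and the 12 with the most positive difference (right) among those called, 2 points per line for the 2 replicates. The dotted line at 300 marks untreated cells. HCC-38 lies left of every other point for BGJ398, AZD4547, YM155, Topotecan, Gemcitabine and Navitoclax, and at 322.2 and 346.4 for RITA, where ZR-75-1 and SKBR3 lie under 100.

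On the high side, RITA separated HCC-38 from every other line. RITA binds p53 and was developed to free it from its inhibitor MDM2. The AUC was 322.2 and 346.4 in HCC-38. MDA-MB-231 came next (281.2 and 267.9), followed by BT-20 (156.6 and 163.7), SKBR3 (61.2 and 83.2) and ZR-75-1 (47.7 and 54.1). No other line overlapped HCC-38, which scored above 300 in both replicates while all the others scored below. The difference of HCC-38 from the mean of the others was 194.8 ± 9.11 (SE, limma adjusted p = 8.39e-07), with 59.7 against MDA-MB-231 alone (limma adjusted p = 0.0123). At 1000 nM RITA left 108.03% and 123.1% of HCC-38 and 8.49% to 98.02% of the others, and at 10000 nM 77.2% and 54.9% against 3.38% to 49.9%. Of the other 4 members of its list, YM155 was called lower, and PAC1, PifithrinAlpha and SJ172550 were not called.

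The wells of RITA also held many reads in barcode pairs that were never made, such as the barcode of a breast cancer line joined to a guide of the spike-in standards. Such reads were taken as swapped barcodes, and their number over that expected if all barcodes paired at random estimates the share of swapped reads. The estimate was 10.05% to 40.9% in its 8 wells, against a median of 1.43% over all compound wells and at most 7.91% in DMSO wells. After the counts were corrected for swapping, the AUC of RITA was 280.8 and 291.3 in HCC-38, below 300. In the others it was 39.05 to 235.2, still without overlap (difference 174.2, limma adjusted p = 5.10e-08). A median estimate over 5% was found for 35 compounds, of which none was called lower and 6 were called higher: RITA, Tacrolimus, Temozolomide, Thalidomide, GDC0879 and Regorafenib. With the counts corrected, the calls over all compounds were 15 lower and 25 higher, and all 37 remained. With only the compounds at or below 5%, the calls were 17 lower and 20 higher. For Tacrolimus, a calcineurin inhibitor, the AUC in HCC-38 was 344.998 and 377.9 as deposited and 294.9 and 325.7 after correction. The difference was 33.5 and 33.9.

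**Figure D3:**
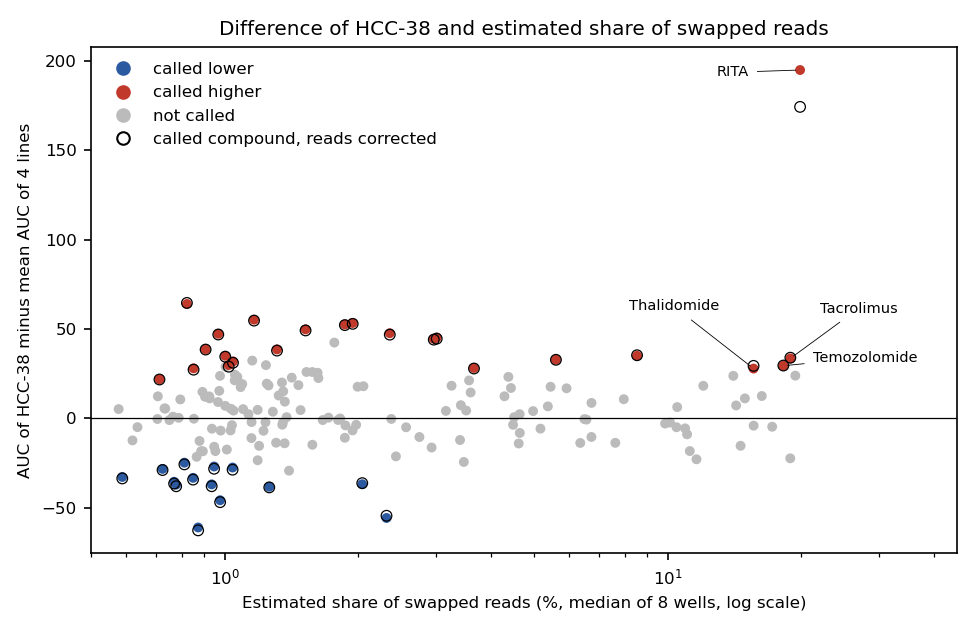
Difference in AUC between HCC-38 and the mean of 4 lines (y axis) against the estimated share of swapped reads (x axis, percent, median of 8 wells, log scale) for all compounds. Open circles give the called compounds after correction of the counts. The points called lower lie at estimates under 5%, and RITA keeps a difference of 174.2 after correction.

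EGFR and HER2 kinase inhibitors acted less on HCC-38 than on the mean of the others. All 6 members had positive differences (median 36.8 against 4.21 over all compounds), 4 were called higher and none lower. Over all compounds 96 differences were positive and 76 negative, and 13.4% were called higher. Gefitinib, an EGFR inhibitor, gave an AUC of 314.6 and 288.3 in HCC-38 and 215.3 to 305.8 (median 243.4) in the others, with overlap in MDA-MB-231 only (305.8 and 269.8, difference 53.3 ± 10.4, limma adjusted p = 0.00810). For the irreversible inhibitors Afatinib and Neratinib, SKBR3 lay far below all other lines, at 102.6 and 114.6 with Afatinib and at 160.2 and 146.5 with Neratinib. HCC-38 was at 219.4 and 255.2 with Afatinib, overlapping MDA-MB-231 and BT-20, and at 260.3 and 270.7 with Neratinib, overlapping MDA-MB-231. Their differences were 45.2 ± 9.89 (limma adjusted p = 0.0128) and 38.5 ± 8.07 (limma adjusted p = 0.0103). Canertinib gave 246.8 and 227.9 in HCC-38, above all others (168.4 to 227.4 (median 206.4), difference 34.98 ± 9.78, limma adjusted p = 0.0319), but at 10000 nM it left 10.2% and 8.52% of HCC-38, lower than the mean of 27.02% of the others (limma adjusted p = 0.0220). Lapatinib and Erlotinib had differences of 20.01 ± 6.77 (limma adjusted p = 0.0656) and 21.2 ± 9.18 (limma adjusted p = 0.136).

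These compounds were also compared with each subtype group. Neratinib differed by 71.02 from the mean of ZR-75-1 and SKBR3 (limma adjusted p = 0.00121) and by 6.06 from the mean of MDA-MB-231 and BT-20 (limma adjusted p = 0.702). Gefitinib differed by 77.2 and 29.4 in the same order, the second with a limma adjusted p of 0.154. Whether the contrasts differ from each other was not tested.

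BrefeldinA, which stops transport from the endoplasmic reticulum to the Golgi, gave an AUC of 159.3 and 141.4 in HCC-38 and 64.6 to 115.8 (median 82.4) in the others without overlap (difference 63.96 ± 10.1, SE, limma adjusted p = 0.00455). At 100 nM it left 50.6% and 57.6% of HCC-38 and 10.6% to 29.3% of the others (limma adjusted p = 0.00243). Fluvastatin, an inhibitor of HMG-CoA reductase in cholesterol synthesis, gave 281.6 and 293.5 in HCC-38 and 181.8 to 276.8 (median 236.1) in the others (difference 55.2 ± 8.93, limma adjusted p = 0.00455). MDA-MB-231 was lowest with Fluvastatin (186.1 and 181.8). The other statins were not called, with differences of −2.17 ± 8.79 for Lovastatin and 11.995 ± 8.94 for Simvastatin.

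Further compounds called higher had unrelated targets. Ki8751, a VEGF receptor inhibitor, gave 292.1 and 310.4 in HCC-38 against 211.7 to 274.3 (median 252.6) (difference 52.5 ± 11.03, limma adjusted p = 0.0103), and Regorafenib of the same list 315.9 and 301.8 against 258.9 to 300.997 (median 272.6) (difference 32.8 ± 8.68, limma adjusted p = 0.0309). The other 7 VEGF receptor inhibitors were not called, and the list median was −0.119. Over all compounds 13.4% were called higher, and 2 calls in a list of this size say little about the class. Necrostatin1, an inhibitor of RIPK1, gave 299.1 and 292.03 in HCC-38 and 202.03 to 279.1 (median 243.9) in the others (difference 49.7 ± 9.21). CHIR99021, a GSK3 inhibitor, gave 319.7 and 311.5 and 242.3 to 307.9 (median 267.1) (difference 44.5 ± 7.66), and at 10000 nM it left 127.97% and 131.2% of HCC-38 cells and 57.2% to 119.8% of the others. In all 4 cases HCC-38 lay above every other value. The limma adjusted p was 0.00739 for Necrostatin1 and 0.00489 for CHIR99021.

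Fulvestrant, which degrades the estrogen receptor, gave 288.9 and 303.9 in HCC-38, 196.9 and 181.7 in the ER+ line ZR-75-1 and 250.3 to 287.1 in the other 3 lines (difference 47.6 ± 7.66, limma adjusted p = 0.00455). Letrozole, an aromatase inhibitor, was also called higher (31.8 ± 9.59, limma adjusted p = 0.0429), with HCC-38 at 313.3 and 316.1, above 300. The other 4 blockers of steroid receptors or synthesis were not called. BardoxoloneMethyl, which activates NRF2 by modifying KEAP1, gave 181.5 and 164.7 in HCC-38 and 110.1 to 164.9 (median 134.7) in the others, with overlap in MDA-MB-231 (difference 38.6 ± 7.93, limma adjusted p = 0.0101). The other called members of the lists were the CDK inhibitor PHA793887 (28.2 ± 7.83), the PAK inhibitor PF3758309 (21.9 ± 6.18), the RAF inhibitor GDC0879 (34.95 ± 9.396) and the alkylators Chlorambucil (27.9 ± 8.7002) and Temozolomide (29.4 ± 8.82), with limma adjusted p from 0.0309 to 0.0494. Among these 5, the HCC-38 AUC with GDC0879 and Temozolomide was above 300 in both replicates (354.3 and 369.5, and 354.1 and 338.1). Outside the lists, Thalidomide (27.8 ± 7.51) and Trifluoperazine (29.8 ± 8.28), an antipsychotic, were also called (limma adjusted p = 0.0309 and 0.0319). Scaled to the DMSO wells of the same dose and replicate label, 11 of the 23 higher calls were lost, those of Canertinib, Chlorambucil, GDC0879, Letrozole, PF3758309, PHA793887, Regorafenib, Tacrolimus, Temozolomide, Thalidomide and Trifluoperazine (limma adjusted p from 0.0595 to 0.143).

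Since HCC-38 is known for BRCA1 promoter methylation, the PARP inhibitors and Cisplatin were examined whatever their value. Olaparib gave an AUC of 274.6 and 265.4 in HCC-38 and 244.6 to 277.9 (median 258.9) in the others, and Veliparib 303.2 and 339.3 and 274.2 to 360.2 (median 304.2). Cisplatin, which crosslinks DNA, gave 287.5 and 287.8 and 286.6 to 309.5 (median 293.7). With all 3 compounds both HCC-38 values lay within the range of the others. The differences were 9.29 ± 7.17 (limma adjusted p = 0.411), 12.5 ± 17.8 (limma adjusted p = 0.711) and −8.202 ± 7.63 (limma adjusted p = 0.534). None of the 7 DNA repair and checkpoint inhibitors was called, where 8.14% were called lower and 13.4% higher over all compounds. With 7 members this count says little about the class. The most negative of them was Lomeguatrib, an inhibitor of the repair enzyme MGMT (−29.3 ± 9.64, limma adjusted p = 0.0632). All wells were read after 72 h.

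The compounds were assigned to 31 target lists, apart from 25 that stood in none. The proteasome list had the most negative median (−35.2, 4 of 4 negative), followed by the BCL-2 family list (−24.4, 3 of 3 negative). The EGFR and HER2 list had the most positive (36.8, 6 of 6 positive), followed by the RAF list (28.7, 3 of 4 positive). Microtubule drugs, which gave a median HCC-38 AUC of 101.3, had no call and a median difference of 3.02. The 9 PI3K inhibitors likewise had no call, with differences from −6.802 to 25.5. Over all compounds 8.14% were called lower and 13.4% higher, so the lack of calls in lists this small says little about these classes.

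**Figure D4:**
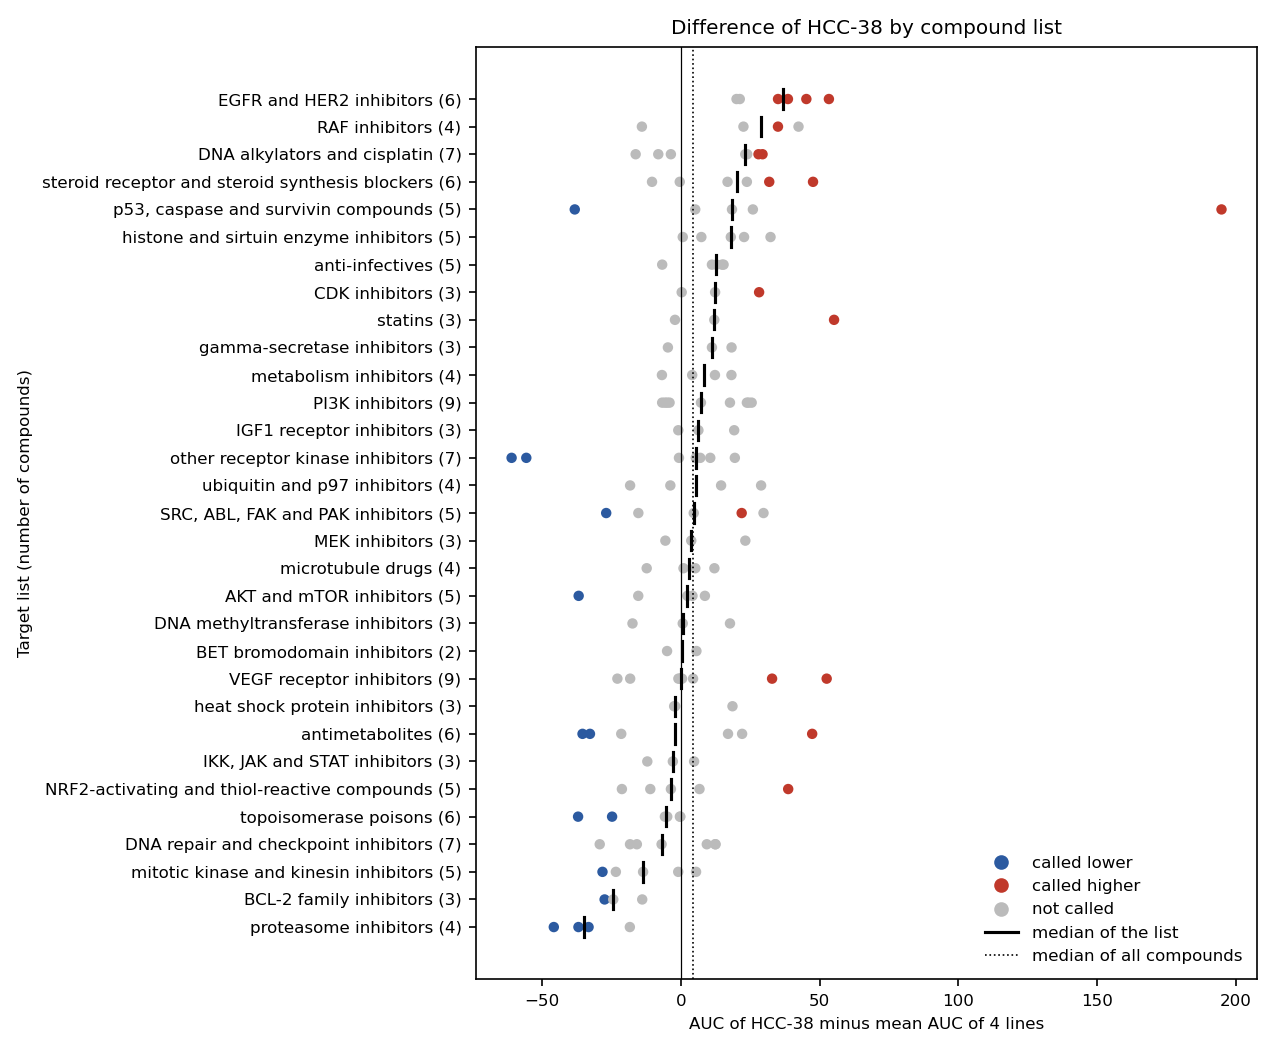
Difference in AUC between HCC-38 and the mean of 4 lines for the compounds of 31 target lists, with list sizes in parentheses. Each point is 1 compound, colour marks calls, black bars are list medians and the dotted line is the median of all compounds. The proteasome list lies lowest and the EGFR and HER2 list highest, and within the receptor kinase list only the FGFR inhibitors BGJ398 and AZD4547 are called.

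Each of the 4 doses was then compared alone. Relative cell number of HCC-38 was lower than the mean of the others for 20 compound-dose pairs (2.91%) and higher for 36 (5.23%). With replicates as a block the calls were 49 and 81. By dose the lower calls numbered 3, 8, 6 and 3 from the lowest to the highest dose, and the higher calls 0, 5, 11 and 20. The median difference went from −0.493 percentage points at the lowest dose to 3.12 at the highest. At the highest dose HCC-38 was under 50% for 60 compounds and the mean of the others for 72. Of the 37 compounds called by AUC, 25 were called at 1 or more doses, and 18 compounds were called at a dose but not by AUC.

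AT7867, Canertinib and Linifanib, named here because they were called in both directions, changed order along the dose range. Linifanib, a VEGF receptor inhibitor, left 82.2% and 90.5% of HCC-38 at 100 nM, below the 93.9% to 117.99% of the others, and 53.6% and 59.7% at 10000 nM, above their 18.5% to 52.9% (limma adjusted p = 0.0304 and 0.0167). Its AUC difference was 4.34 ± 11.03. Among compounds not called by AUC, Masitinib, chosen after its values were seen, left 98.4% and 98.1% at 10000 nM against 24.5% to 91.9% in the others (difference 37.2, limma adjusted p = 0.00253).

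**Figure D5:**
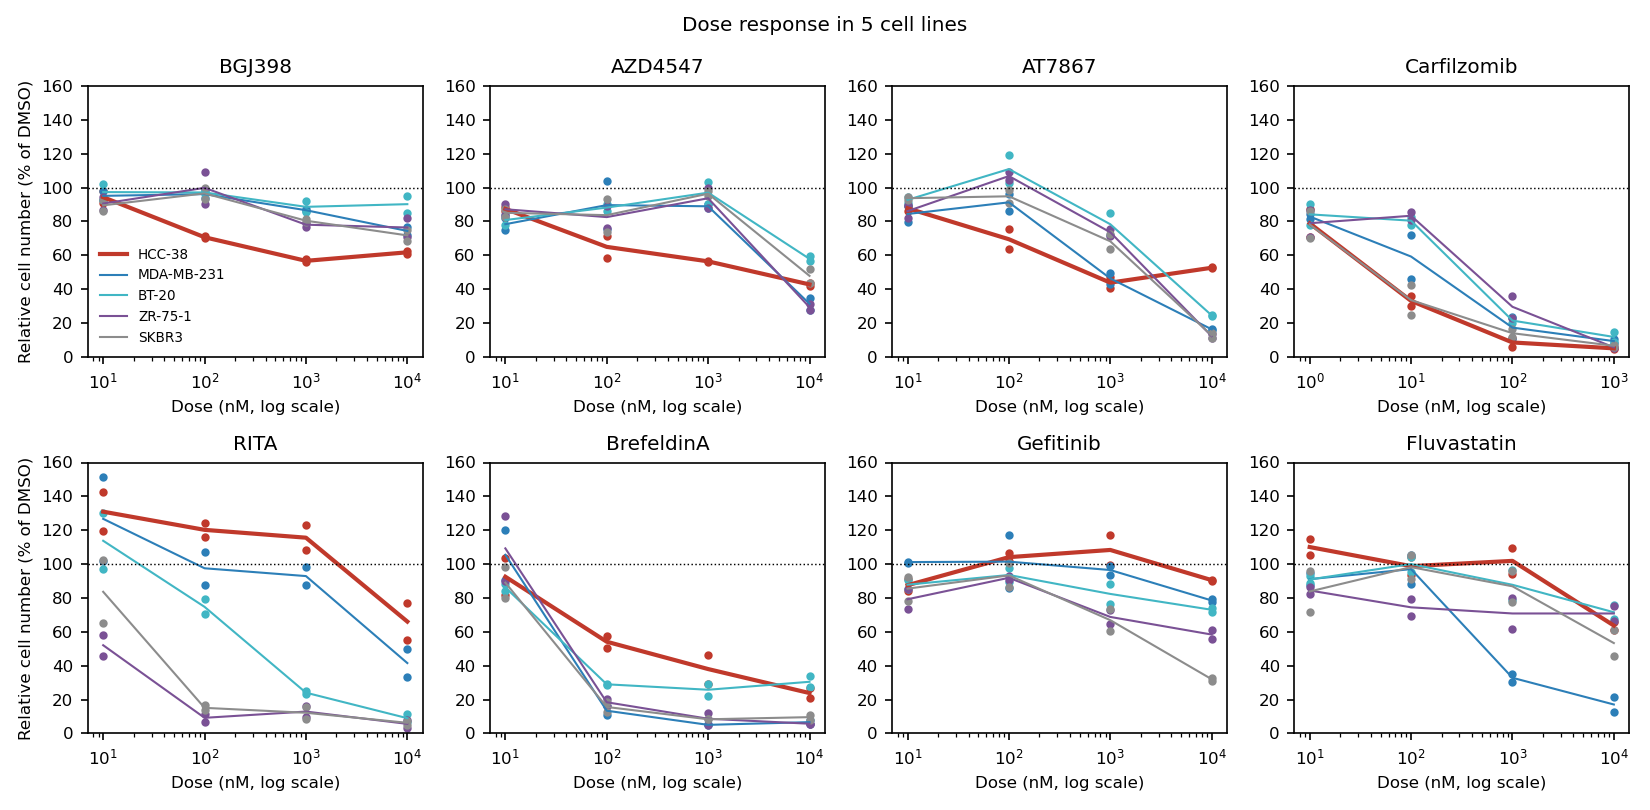
Relative cell number (percent of DMSO) against dose (nM, log scale) for 8 compounds in 5 cell lines. Points are replicates and lines join their means, with HCC-38 in bold red and the dotted line at 100%. HCC-38 drops below the others at 100 and 1000 nM with BGJ398, crosses above them at 10000 nM with AT7867, and stays near or above 100% up to 1000 nM with RITA.

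HCC-38 was also set against the lines of its own subtype and against the others. Compared with the other triple-negative lines, MDA-MB-231 and BT-20, it was lower for 13 compounds (7.56%) and higher for 8 (4.65%). Compared with ZR-75-1 and SKBR3 it was lower for 16 (9.3%) and higher for 35 (20.3%). With replicates as a block these counts were 24 and 19, and 20 and 57. Both contrasts use the same HCC-38 samples. Called lower in both and in the comparison with all 4 lines were BGJ398, AZD4547, Carfilzomib, YM155, Topotecan, Bortezomib, Clofarabine, MLN2238 and Gemcitabine, and called higher in all were RITA, BrefeldinA, Fluvastatin, Ki8751, CHIR99021 and Regorafenib. BGJ398 differed by −68.1 from the triple-negative lines and by −54.1 from ZR-75-1 and SKBR3. Fulvestrant differed by 20.3 from the triple-negative lines (limma adjusted p = 0.179) and by 74.9 from the others (limma adjusted p = 0.000779).

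A few compounds were called against the triple-negative lines but not against all 4, and were chosen after their values were seen. Methotrexate, which blocks dihydrofolate reductase, gave 165.8 and 159.4 in HCC-38, 239.9 and 253.4 in MDA-MB-231 and 191.7 and 204.6 in BT-20 (difference −59.8, limma adjusted p = 0.00275). Cediranib (−37.2, limma adjusted p = 0.0318) and Rigosertib (−33.1, limma adjusted p = 0.0175) were also lower, and the MEK inhibitor Trametinib was higher (30.4, limma adjusted p = 0.0474). Rigosertib differed from ZR-75-1 and SKBR3 in the opposite direction (31.1, limma adjusted p = 0.0120). The same contrast made for each other line against its 4 companions gave 19 lower and 12 higher calls for ZR-75-1, 24 and 4 for SKBR3, 24 and 12 for MDA-MB-231, and 1 and 42 for BT-20.

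Within HCC-38, 6 pairs of structurally related compounds were compared at matched doses, with p-values adjusted over the 6. None of the 6 passed the threshold. The limma estimate of spread drew on all 14706 pairs of compounds. These share compounds and are not independent, which limits the intervals and p-values of the pairs on either scale. Etoposide and Teniposide, podophyllotoxin glycosides that differ in the group on the sugar, gave 141.6 and 172.5 against 117.96 and 123.4, a difference of 36.4 with a 95% interval of 4.67 to 68.1 (limma adjusted p = 0.178). The replicates of the pair did not overlap, and on the log2 scale the difference was 0.37 (limma adjusted p = 0.00364). Topotecan and SN38, camptothecin analogs with different ring substituents, were compared over 10, 100 and 1000 nM with weights 0.5, 1 and 0.5. They gave 50.6 and 57.1 against 44.01 and 43.4 (difference 10.1, 95% interval −10.5 to 30.8, limma adjusted p = 0.412), and on the log2 scale 0.30 (limma adjusted p = 0.0222).

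The other 4 pairs passed on neither scale. Lovastatin minus Simvastatin, which carries an added methyl group, was −21.3 (95% interval −53.5 to 10.8). Cyclophosphamide minus its isomer Ifosfamide was −21.5 (95% interval −52.5 to 9.58). Sorafenib minus Regorafenib, which carries an added fluorine, was 22.9 (95% interval −36.98 to 82.8), with Sorafenib replicates far apart at 376.4 and 287.1. Gefitinib minus Erlotinib, anilinoquinazolines with different side chains, was 4.196 (95% interval −28.2 to 36.6). These intervals are wide, and the smallest limma adjusted p among the 4 was 0.326.

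The sgRNA columns of HCC-38 share wells and are not replicates, so they are given as a description. For 13 of the 14 compounds called lower, all 10 columns were below the mean of the other lines. For 20 of the 23 called higher all 10 were above, against 21 and 36 among all compounds. The calls were made on the mean of these 10 columns, so these counts follow largely from the calls and add no support. With BGJ398 the AUC over the 10 columns ran from 194.4 to 223.9, with AZD4547 from 168.1 to 199.7 and with RITA from 318.95 to 377.6. The columns sgHSF1 and sgKEAP1, which were left out of the means, differed from the other lines without ZR-75-1 in the called direction for 12 of the 14 and 22 of the 23. Both columns were also positive with many compounds that were not called. The share over all compounds was not computed for these columns, so these counts are a description and add no support. Among compounds not called, both columns were positive with Veliparib (99.6 and 95.8), where the median estimated share of swapped reads was 16.3%. Larger values, chosen after they were seen, came with Bendamustine (121.8 and 143.9, estimate 19.4%) and IC87114 (102.6 and 139.7, estimate 15.6%). Both columns were negative with Alisertib (−42.3 and −26.7). With sgNT alone, RITA was the only compound called (172.3, limma adjusted p = 0.000179), and the differences of BGJ398 and AZD4547 were −72.97 and −46.97.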

How the data were processed

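Barcode reads were counted in 1536 wells of a pool of 5 breast cancer cell lines with spike-in cells. HCC-38 gave 1376 of 6960 deposited rows, for 172 of 174 compounds. The authors deposited read counts for each pair of cell line and sgRNA, and relative cell number, a ratio of interpolated cells to their median in DMSO wells, expressed as a percent. Per the methods, reads were counted with up to 1 mismatch per barcode and compounds with few reads were left out. The submitters' processing notes name bcl2fastq. No genome was used.

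From the deposited values, the mean over sgRNA columns and the AUC were computed for each compound, line and replicate in Python 3.11.15 (numpy 2.4.6, pandas 2.3.3, matplotlib 3.10.9). Differences were fitted with limma 3.58.1 in R 4.3.3, with 1 mean per line and Benjamini-Hochberg adjustment over 172 compounds, or 688 compound-dose pairs, at 0.05. For DMSO wells and the corrected values, cells were interpolated again from the counts with a log-log line through each well's standards, which gave back the deposited values to within 5.32e-05 on the log2 scale. The correction subtracted the reads expected in each pair from swapping, estimated from the pairs never made. Deposited counts were summed for an alternative fit with edgeR 4.0.16. The fits were tested on simulated data. For limma these had the same spread in all lines and compounds, and differences larger than most of those called here. That test therefore adds no support to the calls. Replicates with the same number share wells across lines, and their deviations in HCC-38 correlated with those of each other line at r = 0.32 to 0.49, so the block is given where it moves a count. Compounds named were the 12 lowest and 12 highest differences among those called, called members of the target lists, the 6 pairs, Olaparib, Veliparib and Cisplatin, and those said to be chosen after their values were seen. The compounds and lists were chosen with earlier results of these data known. Alternatives covered the reference lines, sgRNAs, dose weights, scaling, the model and leaving out each replicate; 3 were added after the data were seen (sgRNAs under the highest standard, the left-out columns alone, and compounds with at most 5% of reads estimated as swapped).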

Additional observations from a re-analysis of the deposited data

Results flagged for a closer look

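In the DMSO wells of 4 plates, 1 of 6 wells lay far from the other 5. The difference between HCC-38 and the mean of the other lines was −23.2 percentage points in a well of plate 1, against −6.27 to 0.708 in the others, and −20.9 in a well of plate 8, against 1.105 to 13.1. The relative cell number of HCC-38 was 108.97% in a well of plate 9, against 98.9% to 102.4%, and 126.9% in a well of plate 12, against 96.5% to 99.03%. These were 4 of 32 groups examined, where chance gives about 5%.

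By AUC, HCC-38 lay above 300, the score set for untreated cells, in both replicates with FiveFluorouracil (difference 47.3) and RITA (194.8). All 8 values of the other lines lay below 300. The FiveFluorouracil values of HCC-38 were close to 300. HCC-38 in DMSO wells had a mean of 101.6% ± 10.9 (SD, n = 96), so these values were not told apart from untreated cells. At 10000 nM alone HCC-38 was below untreated cells with both compounds, at 62.5% and 72.2% with FiveFluorouracil and 77.2% and 54.9% with RITA. The opposite position by AUC was not tested. After correction of the counts both RITA values of HCC-38 were below 300.

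The estimated share of swapped reads, from barcode pairs that were never made, had a median over 8 wells of 19.9% for RITA, 18.9% for Tacrolimus, 18.3% for Temozolomide, 16.3% for Veliparib, 15.6% for Thalidomide and 8.53% for GDC0879, above the highest DMSO well (7.91%). In all, 24 compounds were above it. In the sgHSF1 and sgKEAP1 columns, which were left out of the means, RITA gave a difference of 215.5 between HCC-38 and SKBR3, MDA-MB-231 and BT-20.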

How the results depend on the processing

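The counts of compounds called against all 4 lines, 14 lower and 23 higher, moved with several choices. Higher calls numbered 13 without ZR-75-1 or without SKBR3 among the reference lines, 15 on log2 AUC, 12 after centring, 12 with DMSO wells of the same dose and replicate label, and 36 with the highest dose alone. Lower calls numbered 9 with edgeR on summed reads and 9 with sgRNAs under the highest standard. The share of reads gave 25 lower and 56 higher. With sgNT alone limma called 0 lower and 1 higher (2 and 13 at an unadjusted p under 0.05), and with sgHSF1 and sgKEAP1 alone 0 and 2 (7 and 30). Against the triple-negative lines sgNT alone gave 0 and 0 in limma (9 and 7 unadjusted), and against ZR-75-1 and SKBR3 0 and 2 (1 and 28 unadjusted). On the log2 scale 41 and 61 compound-dose pairs were called, and Etoposide minus Teniposide (0.37) and Topotecan minus SN38 (0.30) passed. The cause was not tested in any of these.

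With the replicate block, the calls were 23 lower and 39 higher against all 4 lines, 24 and 19 against the triple-negative lines, 20 and 57 against ZR-75-1 and SKBR3, and 49 and 81 over compound-dose pairs. The block by subtraction, which leaves only 2 differences a compound, gave 0 and 1 (21 and 35 unadjusted).

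Leaving out each replicate in turn gave 4 to 14 lower and 9 to 18 higher calls against all 4 lines, 3 to 13 and 2 to 8 against the triple-negative lines, 6 to 15 and 15 to 34 against ZR-75-1 and SKBR3, and 0 to 21 and 10 to 35 over pairs, the 0 being without HCC-38 replicate 2 (37 lower in limma at an unadjusted p under 0.05).

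Single differences changed sign with the highest dose alone for AZD4547 (1.17), AT7867 (36.2), BardoxoloneMethyl (−0.142), Canertinib (−17.7), Chlorambucil (−0.242), Letrozole (−3.15) and Olaparib (−5.04). They did so with the share of reads for Canertinib (−3.004), with sgHSF1 and sgKEAP1 alone for GSK461364 (1.86) and Cisplatin (7.26), and with sgNT alone for Cisplatin (21.2) and Veliparib (−15.95), which ranged from −5.57 to 30.5 without single replicates. Over 34 named called compounds and all alternatives, 73.2% of values kept their direction and call, 26.1% lost the call and 8 changed sign. HCC-38 cell numbers above the highest standard, and 2 replicates a line, limit the precision.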
